A study of Mus musculus and Rattus norvegicus with 36 samples.

Results

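Transcripts of insulin signalling and of glucose output were followed through 36 whole-genome arrays of rodents fed selenium (Se) diets. The genes were Grb10, Sort1, Insr, Irs1, Irs2, Ptpn1, Ppp1r3c, Pck1 and G6pc, and every probe set annotated to 1 of these symbols alone was taken. In the mouse this gave 9 of 9 genes on 19 of 45037 probe sets, and in the rat 7 of 9 genes on 12 of 31042 probe sets. Rat G6pc is listed only on 4 probe sets that each carry 3 symbols, and rat Ppp1r3c was not matched by symbol, so neither was analysed here. In rat liver 2 of the genes were called at 5 μg Se/g against 0.24 μg Se/g, Grb10 and Sort1, both higher, in a comparison that called 2.82% of all rat probe sets. No member probe set passed the test at any other diet against its Se-adequate diet, in mouse liver, mouse kidney or rat liver.

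The diets were set against each other by tissue, with 3 arrays per group. Mouse liver and mouse kidney came from male weanling mice of a colony described as predominately of C57 black background, fed for 35 days on a Se-deficient diet, on 0.05 μg Se/g or on the Se-adequate diet of 0.2 μg Se/g. Rat liver came from male Holtzman weanling rats fed for 28 days. Of the rat study 2 diets, the arrays cover Se-deficient, 0.24, 2 and 5 μg Se/g, with 0.24 μg Se/g as the Se-adequate diet, and in rat study 1 the arrays are of rats fed 0.8 μg Se/g or, as their reference, 0.08 μg Se/g. All groups shared a torula-yeast basal diet with added vitamin E and methionine, and Se was added as sodium selenite. All animals had free access to food, so feeding state at tissue collection was not fixed by the labels. The paper reports lower body weight and raised plasma markers of liver damage in the rats on the highest Se dose. It treats that dose as toxic, and names general toxicity and caloric restriction as possible sources of many transcript changes there. The paper then took out transcripts that overlapped a toxicity array or a caloric restriction dataset. Its clusters with Grb10 and Sort1 come from those that remained. The paper also says its studies did not establish that the changes are particular to high Se. Growth and food intake were not separated from Se dose in these rats, and their part in the member changes was not tested.

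Insulin binds its receptor (Insr), a tyrosine kinase that phosphorylates the adaptor proteins Irs1 and Irs2, and these pass the signal to phosphoinositide 3-kinase and Akt. Akt keeps the transcription factor Foxo1 out of the nucleus, and in the liver this lowers transcription of Pck1 and G6pc, the enzymes that commit carbon to gluconeogenesis and release free glucose. Ptpn1, a tyrosine phosphatase, and Grb10, an adaptor that binds the receptor, both restrain the signal, while Ppp1r3c targets protein phosphatase 1 to glycogen and favours glycogen synthesis. Sort1 (sortilin) is a sorting receptor that was found in the vesicles of the insulin-responsive glucose transporter and that also handles lipoproteins in liver.

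Values are log2 expression levels as deposited, and a difference of 1 is a 2-fold change. A change was called at an adjusted p under 0.05 from limma, a linear model fitted to all probe sets, with the Benjamini-Hochberg adjustment over all of them. The Se status was visible in Gpx1, the selenoprotein glutathione peroxidase-1, which lay at 12.16 to 12.35 in Se-deficient rat liver against 14.05 to 14.19 at 0.24 μg Se/g. In mouse liver Gpx1 lay at 12.87 to 13.07 on the Se-deficient diet, against 14.11 to 14.15 at 0.2 μg Se/g. The array medians were close together, and the tissue labels went with their markers, since the summed level of the hepatocyte markers was 16.47 to 16.54 in Se-deficient mouse liver and 12.87 to 13.25 in Se-deficient mouse kidney. At 2 μg Se/g the rats differed from each other. Replicate 1 had 1964 probe sets more than 2-fold away from the mean at 0.24 μg Se/g, whereas replicates 2 and 3 had 136 and 147. Replicates 1 and 2 deviated together from the Se-deficient mean (r = 0.803 across probe sets, which share the same reference arrays), and replicate 3 did not follow them (r = 0.156 and 0.277). Replicate 2 of the 0.24 μg Se/g diet shared part of this deviation (r = 0.533 and 0.63 with replicates 1 and 2 at 2 μg Se/g), so it reaches the reference arrays too. Results at 2 μg Se/g are given with all arrays and without replicate 1 or replicates 1 and 2. With 1 rat left at that dose, its spread was taken from the other diets.

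Grb10 was the member with the largest change, and it lay higher at the 2 highest Se doses. On probe set 1371517_at, which has the highest level of the 3 rat Grb10 probe sets and stands for the gene, the arrays read 5.45, 5.39 and 5.47 on the Se-deficient diet, and 5.58, 5.69 and 5.36 at 0.24 μg Se/g. They read 6.02, 6.20 and 6.46 on 2 μg Se/g, and 7.05, 7.12 and 6.94 on 5 μg Se/g. Each rat at 5 μg Se/g lay above each rat at 2 μg Se/g, and each of those above each rat on the lower diets of the same study. In study 1 the arrays read 5.77, 5.69 and 5.90 at 0.8 μg Se/g, against 5.77, 5.67 and 5.69 at 0.08 μg Se/g, and these groups overlapped.

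At 5 μg Se/g Grb10 averaged 7.04 ± 0.09, against 5.54 ± 0.17 at 0.24 μg Se/g (SD, n = 3 each). The log2 change was 1.49 (SE 0.12, 95% interval 1.22 to 1.76), a 2.82-fold difference with a limma adjusted p of 0.000212. Of all rat probe sets, 2.82% were called in this comparison in either direction and 2.21% were called higher, and 2 of the 12 member probe sets were called, both higher. By its p this Grb10 probe set was number 9 of all rat probe sets. The 5 μg Se/g rats were also above the 2 μg Se/g rats, by 0.81 (SE 0.12, 1.76-fold, adjusted p 0.00886), in a comparison in which 3.34% of probe sets were called, 2.13% higher and 1.21% lower. Of all probe sets 10.6% were higher without overlap there and 10.5% were lower. That step did not pass with only those 2 diets in the fit (adjusted p 0.123), or without replicates 1 and 2 at 2 μg Se/g, where it was 0.58 with an adjusted p of 0.315.

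At 2 μg Se/g Grb10 averaged 6.23 ± 0.22, against 5.54 ± 0.17 at 0.24 μg Se/g (SD, n = 3 each), a change of 0.68 (SE 0.12, 95% interval 0.41 to 0.95). The groups did not overlap, but the limma adjusted p was 0.282, in a comparison with 1 called probe set (0.00322%) in the whole array and 15.3% of probe sets under an unadjusted p of 0.05. Without replicate 1 the change was 0.78 (adjusted p 0.208), and without replicates 1 and 2 it was 0.92 (adjusted p 0.335). Without replicate 3 it was smaller, 0.56, and called (adjusted p 0.0122), as were 5800 probe sets in all. On the Se-deficient diet Grb10 differed by −0.11 (95% interval −0.37 to 0.16) from 0.24 μg Se/g, and at 0.8 against 0.08 μg Se/g by 0.08 (95% interval −0.15 to 0.30).

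The other rat Grb10 probe sets were not called. Probe set 1397211_at read 5.45, 5.39 and 5.48 at 5 μg Se/g, against 5.04, 5.07 and 5.46 at 0.24 μg Se/g, a change of 0.25 (SE 0.13, adjusted p 0.418), which with array weights was 0.34 and called (adjusted p 0.0357). Probe set 1394610_at averaged 3.88 ± 0.10 at 5 μg Se/g, against 3.77 ± 0.10 (SD, n = 3 each). It stood at percentile 9.04 of rat liver levels and differed by 0.12 (SE 0.10, adjusted p 0.632). The annotation does not tell which transcripts of Grb10 each probe set reads.

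**Figure D1:**
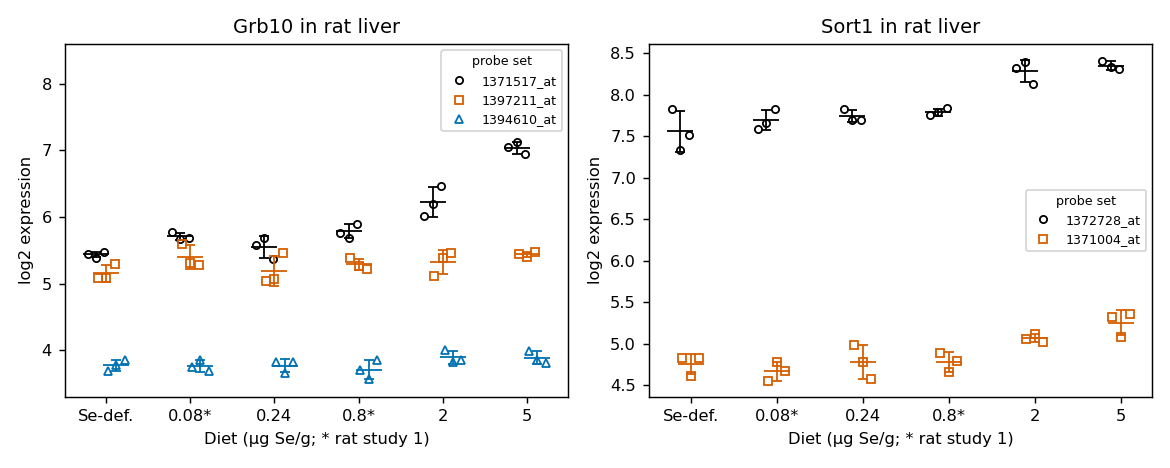
Log2 expression of Grb10 (left, 3 probe sets) and Sort1 (right, 2 probe sets) in rat liver by diet, with 1 point per rat, the mean as a bar and the SD as whiskers (n = 3). Grb10 1371517_at lies at 6.94 to 7.12 at 5 μg Se/g and 5.36 to 5.69 at 0.24 μg Se/g, while Sort1 1372728_at is near 8.3 at both 2 and 5 μg Se/g.

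Sort1 was higher at 5 μg Se/g as well, but without a step between 2 and 5 μg Se/g. On probe set 1372728_at the rats read 7.83, 7.33 and 7.52 on the Se-deficient diet, and 7.83, 7.70 and 7.70 at 0.24 μg Se/g. They read 8.32, 8.40 and 8.14 at 2 μg Se/g and 8.41, 8.34 and 8.31 at 5 μg Se/g. All 6 rats on the 2 high doses lay above all 6 rats on the lower diets of study 2, and the 2 high doses overlapped each other.

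The Sort1 mean was 8.35 ± 0.05 at 5 μg Se/g, against 7.74 ± 0.07 at 0.24 μg Se/g (SD, n = 3 each), a change of 0.61 (SE 0.12, 1.53-fold, adjusted p 0.0229). The call was lost in 5 of the 6 fits that left out 1 array of these diets, with adjusted p between 0.0582 and 0.101 and changes between 0.58 and 0.65. At 2 μg Se/g the change was 0.54 (SE 0.12, unadjusted p 0.000993, adjusted p 0.321), with 8.28 ± 0.13 against 7.74 ± 0.07 (SD, n = 3 each, limma). Without replicate 1 at this dose it was 0.53 and without replicates 1 and 2 it was 0.39, neither called, and without replicate 3 it was 0.62 and called (adjusted p 0.0133). The difference of 5 from 2 μg Se/g was 0.07 (95% interval −0.20 to 0.34).

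The second Sort1 probe set, 1371004_at, read 4.98, 4.78 and 4.58 at 0.24 μg Se/g. On the high doses it read 5.06, 5.11 and 5.02 (2 μg Se/g) and 5.32, 5.08 and 5.36 (5 μg Se/g). Neither high dose overlapped 0.24 μg Se/g. The changes were 0.47 (SE 0.12, adjusted p 0.0645) at 5 μg Se/g and 0.28 (SE 0.12, adjusted p 0.321) at 2 μg Se/g, and neither was called. With all rat arrays in 1 fit the change at 5 μg Se/g was called (adjusted p 0.0274), and at 2 μg Se/g it was 0.28 without replicate 1 and 0.24 without replicates 1 and 2. On the Se-deficient diet and at 0.8 against 0.08 μg Se/g the 2 probe sets differed by −0.18 to 0.11, none of them called.

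Grb10 and Sort1 are on the list of glucose, insulin and glycoprotein genes that the study chose from clusters of these same rat arrays, so their place among the called genes is not independent evidence. The study drew that list from transcripts it had already called at 5 μg Se/g on these arrays, after its filter for toxicity and caloric restriction. Calls of its other genes at this dose were thus nearly fixed in advance and are not independent evidence either. Of the 4 other genes of that list that were measured, 3 were called higher at 5 μg Se/g against 0.24 μg Se/g, beside 2.21% of all probe sets. They were Star, which carries cholesterol into mitochondria (1.65, adjusted p 0.000462), Soat1, which esterifies cholesterol (0.57, adjusted p 0.0361), and Chsy1, a chondroitin sulfate synthase (0.51, adjusted p 0.0365).

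Markers of other liver cells moved at the same dose. In bulk liver, fewer cells of a type and less RNA per cell cannot be told apart. Of 5 stellate cell and fibroblast markers 3 were called higher and 1 lower at 5 μg Se/g, with a median change of 0.896. Col1a1, a collagen chain, changed by 1.62, Des (desmin) by 0.93 and Acta2 (smooth muscle actin) by 0.90, while Lrat, which stores retinol in stellate cells, changed by −2.11. The summed level of that list was 12 to 12.53 at 5 μg Se/g, against 12.07 to 12.59 at 0.24 μg Se/g. The list did not move one way, and its sums overlapped between the diets. In bile duct markers 1 of 3 was called higher (Krt19, 2.63), and their summed level was 9.837 to 12.01 at 5 μg Se/g, against 8.358 to 11.55 at 0.24 μg Se/g. Of 4 endothelial markers 1 was called higher (Pecam1, 0.92) while the list median was −0.219, with a summed level of 12.13 to 12.57 at 5 μg Se/g against 12.31 to 12.67. The sums of both lists overlapped between the diets. Of 4 macrophage markers 1 was called lower (Clec4f, −1.78) with a list median of −0.344, and the summed level was 11.62 to 11.94 at 5 μg Se/g against 12.28 to 12.77. These sums did not overlap. Sums of lists with no called gene also separated, the lymphocyte list at 8.557 to 9.028 at 5 μg Se/g against 8.469 to 8.473, the adipocyte list at 8.877 to 9.576 against 8.409 to 8.831, and the kidney list at 8.363 to 8.557 against 8.603 to 8.787. In that order the median changes of the lists were 0.277, −0.172 and −0.07, so the adipocyte sum and median went opposite ways. None of 6 hepatocyte markers was called, and their sum was 16.67 to 16.68 at 5 μg Se/g, against 16.65 to 16.74. At 2 μg Se/g none of the genes on these lists was called. The part of these cells in the Grb10 and Sort1 results was not tested.

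The genes whose pattern over the 3 study 2 contrasts with 0.24 μg Se/g was nearest to that of Grb10 were Aspn (asporin), Aebp1 and Kitlg, at Euclidean distances of 0.234, 0.235 and 0.244 on the log2 scale. Aspn changed by −0.07 on the Se-deficient diet, by 0.47 on 2 μg Se/g and by 1.58 on 5 μg Se/g. Aebp1 changed by −0.05, 0.49 and 1.61 over the same diets, and Kitlg, the ligand of the receptor Kit, by 0.05, 0.55 and 1.63. Likeness over 3 contrasts that share 1 reference group is a description.

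In the mouse neither gene was called. Grb10 1425458_a_at lay at 6.59, 6.40 and 6.50 in Se-deficient liver, at 6.64, 6.66 and 6.62 at 0.05 μg Se/g and at 6.59 on all 3 arrays at 0.2 μg Se/g. The 0.05 μg Se/g livers lay just above the Se-adequate ones, by 0.05 (adjusted p 1). In kidney the same probe set lay at 8.52, 8.59 and 8.71, at 8.62, 8.59 and 8.64, and at 8.56, 8.51 and 8.66 on the same diets in that order, and the groups overlapped. Sort1 1423362_at lay at 8.85, 8.96 and 9.18 in Se-deficient liver against 8.96, 8.91 and 8.94 at 0.2 μg Se/g, and in kidney at 8.70, 8.54 and 8.53 against 8.65, 8.68 and 8.62. For the Se-deficient diet the 95% interval was −0.25 to 0.06 for Grb10 and −0.15 to 0.26 for Sort1 in liver. The Grb10 values at 0.2 μg Se/g were identical, which lowers their spread. No mouse was fed more than 0.2 μg Se/g, so the rat changes at the high doses have no mouse counterpart here. On the Se-deficient diet 1 of 3 Sort1 probe sets, 1450955_s_at, had no overlap in kidney (6.75 ± 0.05 in Se-deficient kidney, against 6.94 ± 0.07 at 0.2 μg Se/g, SD, n = 3 each), with a change of −0.19 and a limma adjusted p of 0.893. Of all probe sets 4.25% were lower without overlap in that comparison. At 0.05 μg Se/g in kidney Sort1 1423362_at lay at 8.556 to 8.622, just below 8.624 to 8.683 at 0.2 μg Se/g, and was not called. There 3.15% of all probe sets were lower without overlap.

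Ppp1r3c was the mouse member with the largest change, higher in liver on the Se-deficient diet on both of its probe sets, but it did not pass the adjusted threshold. On probe set 1433691_at, the brighter one, the liver arrays read 11.38, 11.48 and 11.28 on the Se-deficient diet, 10.75, 11.05 and 11.11 at 0.05 μg Se/g, and 10.80, 10.55 and 10.11 at 0.2 μg Se/g. On 1425631_at they read 9.47, 9.60 and 9.35, then 8.57, 9.06 and 9.03, then 8.73, 8.68 and 8.23. Every Se-deficient liver lay above every liver of the other diets on both probe sets, and the 0.05 μg Se/g livers overlapped those at 0.2 μg Se/g.

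For the brighter probe set the mean was 11.38 ± 0.10 in Se-deficient liver and 10.49 ± 0.35 in Se-adequate liver (SD, n = 3 each). The change was 0.89 (SE 0.16, 95% interval 0.54 to 1.24, 1.85-fold), with an unadjusted p of 0.000166 and a limma adjusted p of 0.288. For 1425631_at it was 0.93 (SE 0.16, 1.90-fold), with an unadjusted p of 0.00011 and an adjusted p of 0.247. By p these were number 26 and number 20 of 45037 probe sets, of which 10 (0.0222%) were called in this comparison, and 0 of the 19 member probe sets were. In all, 3.45% of probe sets were higher with no overlap and 4.63% had an unadjusted p under 0.05, and 2 member probe sets met both, those of Ppp1r3c. Both were called with all 18 mouse arrays in 1 fit (adjusted p 0.0294 and 0.0145) and with array weights (0.0336 and 0.0421). They were not called with the replicate number as a block (0.203 and 0.135) or without any 1 array, with changes of 0.70 to 1.05. At 0.05 against 0.2 μg Se/g the change was 0.48 (unadjusted p 0.0116) and 0.34 (unadjusted p 0.0542), each with a limma adjusted p of 1.

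Within mouse kidney the brighter Ppp1r3c probe set stood at percentile 44.1 of all probe set levels, and within mouse liver at percentile 97.1. The tissues were normalized apart, and this difference in level was not tested. The brighter probe set read 5.98, 5.98 and 6.15 in Se-deficient kidney, 5.90, 5.99 and 5.92 at 0.05 μg Se/g, and 5.92, 5.72 and 6.19 at 0.2 μg Se/g, and the 3 diets overlapped. The change on the Se-deficient diet was 0.10 (95% interval −0.15 to 0.35), and −0.13 (95% interval −0.36 to 0.10) on 1425631_at. The response in liver minus that in kidney was 0.79 (SE 0.21, adjusted p 0.835) and 1.06 (SE 0.20, adjusted p 0.352) on the 2 probe sets, and neither was called, beside 0.00222% of all probe sets. This fit took the 18 arrays as independent, although livers and kidneys came from the same mice. With same-numbered livers and kidneys as a block the adjusted p was 0.689 and 0.548.

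**Figure D2:**
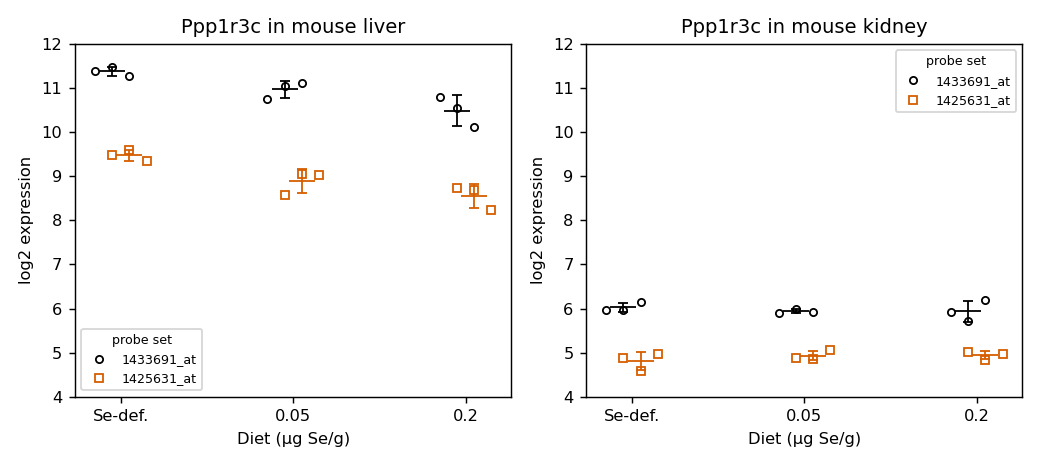
Log2 expression of the 2 Ppp1r3c probe sets in mouse liver (left) and mouse kidney (right) by diet, with 1 point per array, the mean as a bar and the SD as whiskers (n = 3). In liver the Se-deficient arrays lie above the others on both probe sets, at 11.28 to 11.48 on 1433691_at, and in kidney all arrays of that probe set lie between 5.72 and 6.19.

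Pck1 and G6pc, the enzymes of glucose output, were not called in any comparison, and Pck1 scattered widely between animals. In mouse liver their probe sets stood at percentiles 97.4 and 99 of all levels. Pck1 (1423439_at) read 10.69, 11.21 and 11.52 in Se-deficient mouse liver, 11.61, 11.42 and 11.09 at 0.05 μg Se/g, and 10.82, 10.41 and 11.73 at 0.2 μg Se/g. The liver groups overlapped, and the change on the Se-deficient diet was 0.15 (SE 0.30, adjusted p 0.959). In kidney Pck1 read 12.10, 11.75 and 11.95, then 11.84, 11.89 and 11.37, then 11.54, 12.02 and 11.64, with a change of 0.20 (SE 0.16) on the Se-deficient diet. A second probe set, 1439617_s_at, differed by 0.15 in liver and 0.21 in kidney (adjusted p 0.965 and 0.957). The third, 1455209_at, lay between 3.21 and 4.68, at percentile 7.36 of mouse liver levels.

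In rat liver Pck1 read 13.53, 13.22 and 12.95 on the Se-deficient diet, and 12.70, 13.49 and 13.13 at 0.24 μg Se/g. On the high doses it read 13.88, 13.13 and 11.35 (2 μg Se/g) and 13.49, 13.15 and 13.07 (5 μg Se/g). The highest and the lowest values of study 2 were both at 2 μg Se/g, and all the groups overlapped. The change was 0.13 (SE 0.48, 95% interval −0.93 to 1.19) at 5 μg Se/g and −0.32 (95% interval −1.38 to 0.74) at 2 μg Se/g, so the data leave room for large changes in both directions. Without replicate 1 the change at 2 μg Se/g was −0.87, and without replicates 1 and 2 it was −1.76, in neither case called (adjusted p 0.81 and 0.396). At 0.8 against 0.08 μg Se/g the change was −0.42 (SE 0.26, adjusted p 0.967).

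G6pc (1417880_at) scattered less in mouse liver. It read 12.33, 12.45 and 12.55 on the Se-deficient diet, 12.38, 12.72 and 12.29 at 0.05 μg Se/g, and 12.43, 12.23 and 12.46 at 0.2 μg Se/g, and the change on the Se-deficient diet was 0.07 (95% interval −0.19 to 0.33). In kidney it read 11.98, 11.98 and 11.57, then 12.25, 11.56 and 11.98, then 12.39, 12.03 and 11.73, with a change of −0.21 (95% interval −0.66 to 0.24). The diets overlapped in both tissues.

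The start regions of Ppp1r3c, Pck1 and G6pc are shown because these genes carry the glycogen and glucose output side of the pathway. Each is the 250 bases before the RefSeq start in the mouse (GRCm38.p6), 5′ to 3′ on the strand of the gene. Capitals mark matches on either strand to TATAAA (a core promoter box), ACGTCA (most of a cyclic AMP response element), CACGTG (an E-box), TGTTTAC (a Foxo motif) or TGACNNNGC (an antioxidant response element).
Ppp1r3c (chr19:36736605-36736854, minus strand): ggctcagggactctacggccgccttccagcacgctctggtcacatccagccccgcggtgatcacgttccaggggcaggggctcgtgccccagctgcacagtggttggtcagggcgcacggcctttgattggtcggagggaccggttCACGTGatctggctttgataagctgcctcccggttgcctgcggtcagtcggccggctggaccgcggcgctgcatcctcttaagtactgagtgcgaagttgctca
Pck1 (chr2:173152823-173153072, plus strand): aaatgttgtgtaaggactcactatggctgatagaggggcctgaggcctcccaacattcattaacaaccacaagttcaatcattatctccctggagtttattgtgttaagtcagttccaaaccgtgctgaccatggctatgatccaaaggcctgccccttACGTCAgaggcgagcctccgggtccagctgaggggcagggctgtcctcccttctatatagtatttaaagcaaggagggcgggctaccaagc
G6pc (chr11:101367466-101367715, plus strand): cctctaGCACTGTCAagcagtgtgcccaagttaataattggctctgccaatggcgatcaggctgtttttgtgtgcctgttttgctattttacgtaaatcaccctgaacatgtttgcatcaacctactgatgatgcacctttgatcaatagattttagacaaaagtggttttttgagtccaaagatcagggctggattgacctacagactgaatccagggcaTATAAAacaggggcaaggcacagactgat
Ppp1r3c holds an E-box at −104 to −99 and Pck1 holds ACGTCA at −91 to −86, counted from the start site. G6pc holds TATAAA at −29 to −24 and TGACNNNGC at −244 to −236. Of 32851 mouse promoters of this length, 6.02% held CACGTG, 6.47% ACGTCA, 12.4% TATAAA, 10.2% TGACNNNGC and 3.17% TGTTTAC. A promoter was given for 7 of the 9 genes, 8 promoters with the 2 of Grb10, and the matches among them were 3, 2, 1, 3 and 0 in that order of motifs. In Irs1 and Irs2 the CACGTG and TGACNNNGC matches overlap. These are matches of letters, not measured binding sites.

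**Figure D3:**
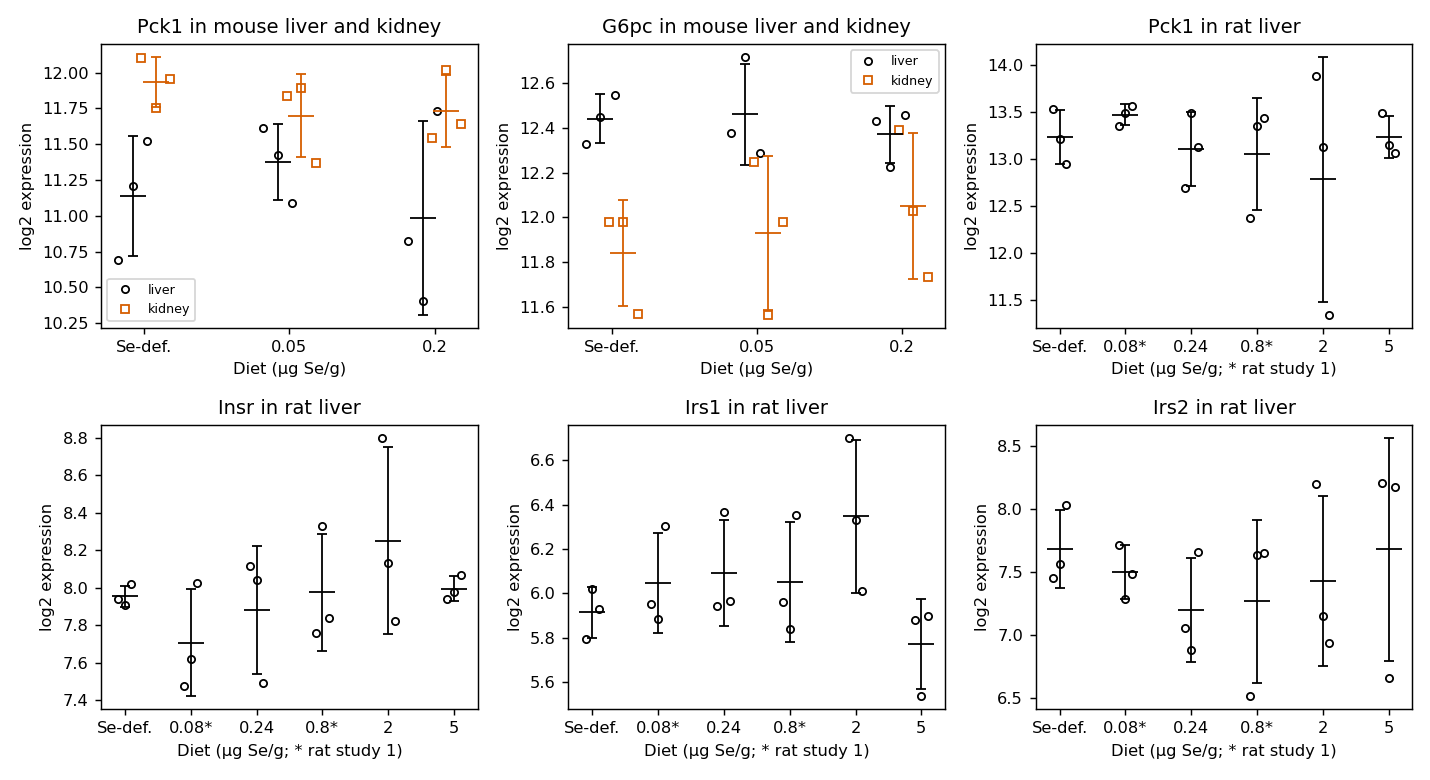
Log2 expression of Pck1 and G6pc in mouse liver and kidney, and of Pck1, Insr, Irs1 and Irs2 in rat liver, by diet, with 1 point per array, the mean as a bar and the SD as whiskers (n = 3). The 3 rats at 2 μg Se/g spread widely, with Pck1 between 11.35 and 13.88 and Insr between 7.82 and 8.80.

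The receptor and its adaptors were not called in any comparison. Insr (1392043_at) in rat liver read 7.94, 7.91 and 8.02 on the Se-deficient diet, and 8.12, 8.04 and 7.49 at 0.24 μg Se/g. On the high doses it read 8.80, 8.13 and 7.82 (2 μg Se/g) and 7.94, 7.98 and 8.07 (5 μg Se/g). Replicate 1 at 2 μg Se/g was the highest array, and the groups overlapped. The changes were 0.11 (95% interval −0.37 to 0.59) at 5 μg Se/g and 0.37 (95% interval −0.11 to 0.85) at 2 μg Se/g, and the one at 2 μg Se/g was 0.10 without replicate 1 and −0.06 without replicates 1 and 2. The second rat probe set, 1369051_at, differed by 0.27 (2 μg Se/g) and 0.02 (5 μg Se/g), and the first of these was 0.05 without replicate 1 and −0.01 without replicates 1 and 2. In the mouse Insr (1434446_at) differed by 0.07 (SE 0.18) in Se-deficient liver and −0.03 (SE 0.09) in Se-deficient kidney. At 0.05 μg Se/g in kidney it read 8.42, 8.59 and 8.53, against 8.61, 8.75 and 8.77 at 0.2 μg Se/g, with no overlap and a change of −0.20 (limma adjusted p 1).

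Irs1 (1369771_at) in rat liver read 5.79, 6.02 and 5.93 on the Se-deficient diet, and 5.94, 6.37 and 5.97 at 0.24 μg Se/g. On the high doses it read 6.70, 6.33 and 6.01 (2 μg Se/g) and 5.88, 5.54 and 5.90 (5 μg Se/g). The 5 μg Se/g rats lay below all rats at 0.24 and at 2 μg Se/g. The change at 2 μg Se/g was 0.26 (SE 0.18, adjusted p 0.462), but 0.08 without replicate 1 and −0.08 without replicates 1 and 2. The change at 5 μg Se/g was −0.32 (SE 0.18, adjusted p 0.453) against 0.24 μg Se/g and −0.57 (SE 0.18, adjusted p 0.0934) against 2 μg Se/g. The difference from 2 μg Se/g was −0.40 without replicate 1 at that dose (adjusted p 0.306), −0.24 without replicates 1 and 2 (adjusted p 0.932), and −0.74 and called without replicate 3 (adjusted p 0.00862). In mouse liver Irs1 differed by 0.22 (SE 0.14, adjusted p 0.926) on the Se-deficient diet and in kidney by −0.13 (SE 0.18, adjusted p 0.948).

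Irs2 (1371091_at) varied widely between rats of 1 diet. It read 7.45, 7.56 and 8.03 on the Se-deficient diet, and 7.05, 6.88 and 7.66 at 0.24 μg Se/g. On the high doses it read 8.20, 7.15 and 6.94 (2 μg Se/g) and 8.21, 6.66 and 8.17 (5 μg Se/g). The groups overlapped, and the change at 5 μg Se/g was 0.48 (SE 0.42, 95% interval −0.44 to 1.41, adjusted p 0.668). At 2 μg Se/g it was 0.23 (95% interval −0.69 to 1.16), but −0.15 without replicate 1 and −0.26 without replicates 1 and 2. In the mouse its single probe set differed by −0.09 (SE 0.13) in Se-deficient liver and −0.11 (SE 0.08) in Se-deficient kidney. At 0.05 μg Se/g in kidney it lay at 6.414 to 6.583, just below 6.586 to 6.710 at 0.2 μg Se/g, and was not called.

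Ptpn1 had 2 rat probe sets that differed at 2 μg Se/g. On 1397916_s_at, the brighter one, the change was 0.16 (SE 0.13, adjusted p 0.497), and 0.06 without replicate 1 and 0.09 without replicates 1 and 2. On 1368645_at the rats read 7.65, 7.72 and 7.34 at 2 μg Se/g, against 6.97, 7.15 and 7.38 at 0.24 μg Se/g, a change of 0.40 (SE 0.14, adjusted p 0.321) with overlap. It was 0.36 without replicate 1 and 0.17 without replicates 1 and 2, neither called, and 0.51 and called without replicate 3 (adjusted p 0.0267). At 5 μg Se/g the 2 probe sets differed by 0.03 and 0.14. At 0.8 μg Se/g 1368645_at read 7.21, 7.23 and 7.21, against 7.09, 7.01 and 6.96 at 0.08 μg Se/g, the only member without overlap in study 1 (change 0.20, adjusted p 0.967). In the mouse both Ptpn1 probe sets stayed within changes of −0.01 to 0.17, none called.

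Each comparison was also counted over the member probe sets. At 5 against 0.24 μg Se/g 3 of 12 member probe sets were higher with no overlap and 1 was lower, beside 11.1% and 12.5% of all probe sets, and 0 of 12 were called lower, beside 0.609%. With an unadjusted p under 0.05 there were 3 (limma), beside 14.7%, and at 5 against 2 μg Se/g 2, beside 24.2%. At 2 against 0.24 μg Se/g 4 of 12 were higher with no overlap, 2 of Grb10 and 2 of Sort1, and 0 were lower, beside 5.85% and 6.9%, and 4 had an unadjusted p under 0.05, beside 15.3%. The median change of the 7 rat genes was 0.13 in the 5 μg Se/g and 0.26 in the 2 μg Se/g comparison, beside −0.03 and −0.02 over all probe sets. These 2 comparisons share the 0.24 μg Se/g arrays. Grb10 and Sort1 come from clusters that the study saw rise at 2 and 5 μg Se/g on these same arrays. The counts and medians that include them are thus not independent evidence about the set. On the Se-deficient diet 0 of 12 rat probe sets were called (limma), beside 0.00322% of all, and 0 had an unadjusted p under 0.05, beside 3.4%. None was higher or lower without overlap, beside 5.75% and 5.89%. In Se-deficient kidney 0 of 19 were called, beside 0.00666% of all probe sets, and 1 had an unadjusted p under 0.05 (limma), beside 5.42%. At 0.05 μg Se/g no probe set of the whole array was called in liver or kidney, and 1 and 0 of the 19 had an unadjusted p under 0.05, beside 1.95% and 2.91% of all probe sets (limma). Without overlap 1 was higher in liver, beside 3.06%, and 3 were lower in kidney, beside 3.15%. At 0.8 against 0.08 μg Se/g no probe set was called either, and 0 of 12 members had an unadjusted p under 0.05 (limma), beside 4.58%, and 1 was higher without overlap, beside 4.2%.

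**Figure D4:**
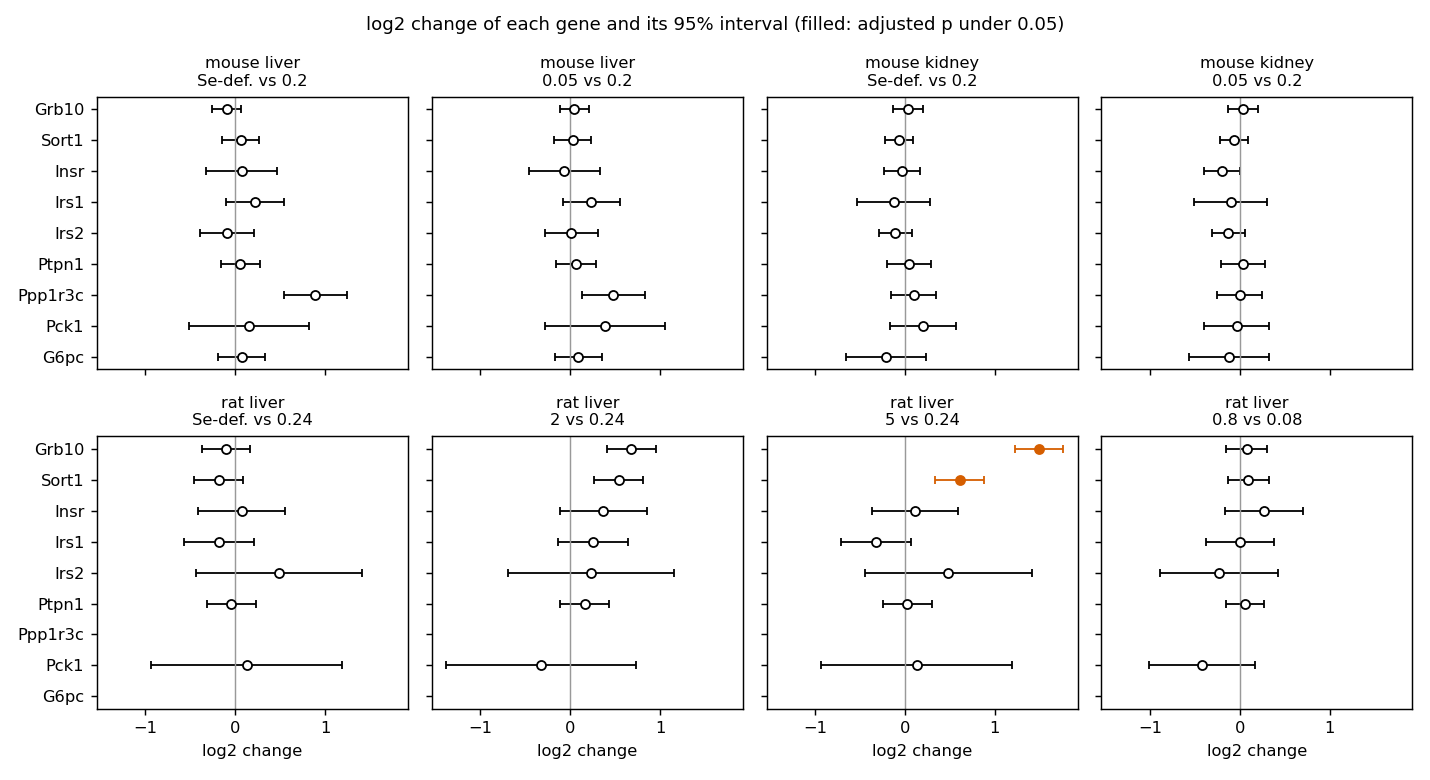
Log2 change (x axis) of each gene, on the probe set that stands for it, in 8 comparisons of diets, with 95% intervals from limma and filled points for adjusted p under 0.05. The filled points are Grb10 (1.49) and Sort1 (0.61) in rat liver at 5 against 0.24 μg Se/g, and Ppp1r3c (0.89) in Se-deficient mouse liver is the largest change that was not called. No point is drawn for rat Ppp1r3c and G6pc.

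Genes of the wider pathway were called only in the comparisons that include 5 μg Se/g, and against 0.24 μg Se/g at about the rate of the whole array. Besides the members, 88 genes of insulin signalling, glucose output, glycolysis, glycogen and vesicle sorting were listed from general knowledge, of which 82 were measured in the rat and 78 in the mouse. At 5 against 0.24 μg Se/g 2 of 82 were called higher and 0 lower, beside 2.21% and 0.609% of all probe sets, and the median change was 0.02, beside −0.03. With an unadjusted p under 0.05 there were 21 of 82 (limma), a larger share than the 14.7% of all probe sets. This sets genes on their brightest probe sets against all probe sets, dim ones included. The called genes were Hk1, a hexokinase (0.70, SE 0.13, adjusted p 0.0145), and Pck2, the mitochondrial counterpart of Pck1 (0.69, SE 0.14, adjusted p 0.0223). Hk1 averaged 7.05 ± 0.14 at 5 μg Se/g, against 6.34 ± 0.22 at 0.24 μg Se/g, and Pck2 averaged 8.35 ± 0.30 against 7.66 ± 0.06 (log2 level, SD, n = 3 each).

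By list, members included, none of 11 receptor and adaptor genes and none of 15 genes of the phosphoinositide 3-kinase, Akt and Foxo branch was called at 5 against 0.24 μg Se/g, with median changes of 0.11 and −0.02. Of 13 genes that restrain insulin signalling 1 was called, Grb10, with a list median of 0.03, and of 10 genes of the sortilin family and insulin-regulated vesicles 1 was called, Sort1, with a median of 0.01. Of 15 genes of gluconeogenesis and glucose release 1 was called, Pck2, with a median of 0.15, and of 12 genes of glycolysis and glucose use 1, Hk1, with a median of −0.02. None of 11 glycogen genes (median 0.02) or of 7 genes that insulin holds down through Foxo1 (median 0.13) was called. Each of 4 lists thus held 1 called gene, each higher, beside 2.82% of all probe sets called and 2.21% called higher. With 7 to 15 genes per list, such counts do not set a list apart from the whole array. The list genes are on their brightest probe sets, and the values over the array take in dim ones too. The medians lay between −0.02 and 0.15, beside −0.03 over all probe sets.

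At 5 against 2 μg Se/g 2 of 82 were called higher and 3 lower, beside 2.13% and 1.21% of all probe sets. An unadjusted p under 0.05 was found for 34 of 82 (limma), again a larger share than the 24.2% of all probe sets. Hk1 (0.70, adjusted p 0.0211) and Pck2 (0.57, adjusted p 0.0484) were higher again. Enpp1, which binds the insulin receptor and restrains it (−0.83, adjusted p 0.0345), Pygl, the liver glycogen phosphorylase (−0.58, adjusted p 0.0492), and Trib1 (−1.18, adjusted p 0.0496) were lower. These comparisons share the 5 μg Se/g arrays, and the second rests on the uneven rats at 2 μg Se/g. At 2 against 0.24 μg Se/g 0 of 82 were called, beside 0.00322% of all probe sets, and 11 had an unadjusted p under 0.05 (limma), beside 15.3%. Members aside, the smallest p at this dose over these genes and the study's own list were those of Chsy1 (0.62, adjusted p 0.282) and Ugp2 (0.48, adjusted p 0.321). Chsy1 is on the study's list and not among the 82, while Ugp2 makes the UDP-glucose for glycogen.

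Se deficiency called 0 of 82 of these genes in the rat and 0 of 78 in either mouse tissue. Of all probe sets, 0.00322% were called in rat liver, 0.0222% in mouse liver and 0.00666% in mouse kidney. The smallest unadjusted p in the rat were those of Pik3r1, the regulatory subunit of phosphoinositide 3-kinase (−1.07, SE 0.25, limma adjusted p 0.999), and Ugp2 (0.45, SE 0.13, adjusted p 0.999). With an unadjusted p under 0.05 there were 2 genes in the rat, 4 in mouse liver and 4 in mouse kidney (limma), beside 3.4%, 4.63% and 5.42% of all probe sets.

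**Figure D5:**
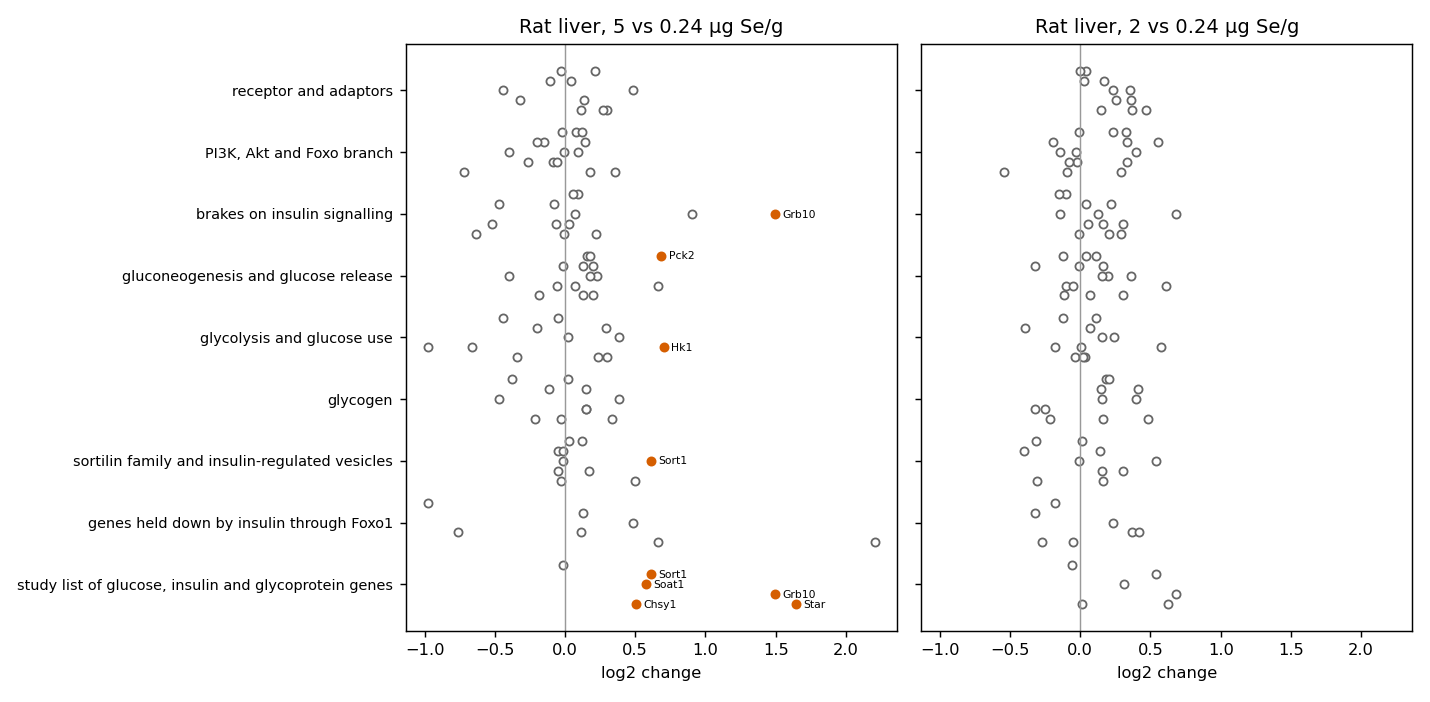
Log2 change of the measured genes of each pathway list in rat liver, with 1 point per gene, at 5 against 0.24 μg Se/g (left) and 2 against 0.24 μg Se/g (right), and filled points for adjusted p under 0.05. Hk1 (0.70) and Pck2 (0.69) are the called genes besides the members and the study's own list, and no point is filled at 2 μg Se/g.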

How the data were processed

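The files hold deposited log2 expression levels of single probe sets on 36 arrays, which per the submitters' processing notes the authors made with GCRMA, while the study methods name RMA (affy). The authors processed each study and mouse tissue separately, and mouse arrays were made from purified mRNA and rat arrays from total RNA with other labelling. Levels were thus mainly compared within a study and tissue. The exceptions are the hepatocyte marker check of the tissue labels and the Ppp1r3c percentiles in liver and kidney. The liver minus kidney response sets 1 difference against another. Arrays give no read depth, and 3 arrays per group limit the precision. The samples are separate animals within a tissue, and with 3 mice per diet in the study methods, livers and kidneys of a diet come from the same mice. The labels do not say that a shared number is a shared mouse. Rat diets were assigned to studies from the text of the paper.

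Array controls (64 mouse, 57 rat) were left out. R 4.3.3 and limma 3.58.1 were used, with 1 coefficient per diet and eBayes defaults, on the 9 arrays of a mouse tissue, the 12 arrays of rat study 2, the 6 arrays of rat study 1, or all 18 mouse arrays for liver minus kidney. P values were adjusted over all probe sets, and the scripts were tested on simulated data. With 3 arrays against 3 the smallest exact two-sided p is 0.10. Figures used Python 3.11.15 and matplotlib 3.10.9.

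The members and lists were chosen with earlier results of these data known. All member probe sets with 1 symbol were analysed and counted, but the dimmer mouse probe sets of Grb10, Sort1 and Insr are not all given singly. A gene was represented by its brightest probe set in that species. Gene counts and medians thus rest on such probe sets, while the shares and medians beside them are over all probe sets. From each other list up to 4 called genes, or up to 2 with the smallest p, were named. The marker genes named beside them were chosen after their values were seen. The 3 nearest genes to Grb10 have the smallest Euclidean distance over 3 changes. The annotation gave 1 symbol for 34945 mouse and 20826 rat probe sets, several for 932 and 436, and none for 9160 and 9780. Identical values on at least 2 arrays of a tissue occur in 54.2% of probe sets in mouse liver, 53% in mouse kidney and 5.58% in rat liver, mostly dim ones. This affects 8, 12 and 0 member probe sets in that order, and lowers their spread.

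Replicate numbers were checked as pairs by the correlation of same-numbered residuals. In mouse liver all were above 0.1 for the Se-deficient against the 0.2 μg Se/g diet (0.105 to 0.462), and the block changed no member call there. Mouse promoters are from RefSeq (GRCm38.p6). The alternatives were other sets of arrays in the fit, trend and robust eBayes, array weights, dim probe sets left out, quantile normalization, the replicate block and single arrays left out.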

Additional observations from a re-analysis of the deposited data

How the results depend on the processing

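Member probe sets kept their side of the threshold in 2096 of 2121 recomputed results, 18 became called, 7 lost the call and 0 called values reversed, while 170 uncalled ones changed sign. In Se-deficient mouse liver 2 member probe sets were called with all arrays in 1 fit and 2 with array weights, against 0. In rat liver at 2 against 0.24 μg Se/g 6 were called with array weights, which called 13048 probe sets in all, and 0 to 3 when 1 array was left out, 3 being without replicate 3 at 2 μg Se/g. At 5 against 0.24 μg Se/g, where 2 were called, 1 was called with dim probe sets left out, a filter that removes Grb10 1371517_at, 3 with all rat arrays in 1 fit, 3 with array weights, and 1 to 2 when 1 array was left out. Over the alternatives the number of all probe sets called there ran between 351 and 3184, against 875, and Grb10 was called in all 14 fits that held it (1.40 to 1.57, adjusted p 3.4e-06 to 0.00338). Sort1 was called in 10 of 15. At 5 against 2 μg Se/g, where 1 was called, 0 were called with only the 2 diets in the fit, 0 with dim probe sets left out, 0 without replicates 1 and 2 at 2 μg Se/g, 3 with array weights and 1 to 2 when 1 array was left out. There the number of all probe sets called ran between 8 and 14962, against 1037. At 2 against 0.24 μg Se/g it ran between 0 and 13048, against 1. The cause of these shifts was not tested. In the other comparisons 0 member probe sets were called under every alternative run.

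With the replicate number as a block, 2 member probe sets were called at 5 against 0.24 μg Se/g, 1 at 5 against 2 μg Se/g and 0 in the other comparisons, as without it, and 783 and 777 of all probe sets were called in those 2 comparisons. Outside Se-deficient against Se-adequate mouse liver the numbers gave at least 1 pair with a correlation under 0.1 in each comparison of diets. Between same-numbered liver and kidney arrays it was 0.212 to 0.249 at 0.05 μg Se/g, 0.116 to 0.241 at 0.2 μg Se/g and −0.114 to 0.0313 on the Se-deficient diet, and no member was called for liver minus kidney with or without that block. The fits without replicate 1 at 2 μg Se/g, for the comparisons that do not include that diet, were added after the data were seen and left the calls of members at 5 against 0.24 μg Se/g at 2.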
